A study of Mus musculus with 6 samples.

Results

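The genes examined here encode the proteins through which microRNAs (miRNAs) act once they have been made: the 4 Argonautes (Ago1, Ago2, Ago3 and Ago4), the 3 GW182 proteins (Tnrc6a, Tnrc6b and Tnrc6c), the RNA helicases Mov10 and Ddx6, and Cnot1, the scaffold of the CCR4-NOT deadenylase. They were measured in 3 Dicer mutant hearts and 3 control hearts of mouse embryos at embryonic day 11.5, each on its own single-colour CodeLink array. In the mutants Dicer was inactivated by a Cre recombinase knocked into the Nkx2.5 locus, so that cells of the heart outside that lineage would keep the gene. No label gives the genotype of the controls, whether they carry the Cre allele, or whether an array held 1 heart or a pool. Each p-value thus reflects the spread among these arrays alone, which may be technical in part. The members are all 15 probes that the platform annotation assigns to these 10 genes, of 18005 genes with a probe of their own, 21676 such probes and 36227 spots on the array.

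Argonaute proteins hold the mature miRNA and pair it with target transcripts. GW182 proteins bind Argonaute through repeats rich in glycine and tryptophan and recruit CCR4-NOT, which shortens the poly(A) tail, while Ddx6 and its partners block translation and lead to removal of the cap. Dicer cuts miRNA precursors into the short RNAs that load Argonaute. The comparison thus asks how the transcripts of the downstream effectors stand when Dicer is inactivated in the Nkx2.5 lineage of the developing heart.

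Of the 15 probes, 12 were above background on all 6 arrays and entered the test, which left 9 of the 10 genes with a measured value. None of the 12 was saturated. The other 3 were both probes of Ddx6 and the dimmer probe of Ago2. Ddx6 probe 13852 was not well above background on any array, and probe 6683 only on mutant 2, so no difference is given for Ddx6. The dimmer Ago2 probe, 2509, was not well above background on any array. The probes' own sequences were not used here, so how far related genes share signal on a probe was not tested.

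On each array 74.1% to 78.2% of the spots were above background. The arrays did not separate by group: along the first principal component (54.1% of variance) control 3 stood at -20.8, between mutant 1 at -18.3 and mutant 2 at -30.1, whereas mutant 3 was at 5.63 and controls 1 and 2 were at 37.3 and 26.3. Each result on the effectors is therefore also given without control 3 where that changes a call. Of 10 listed cardiomyocyte markers 9 passed the background filter and were tested, while Nppa, the tenth, has no probe in the annotation. Erythroid markers were tested at 9 of 10 and liver markers at 3 of 4, so detection alone cannot bear out the cardiac label.

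No effector probe passed limma's test over all 17727 probes, in which 0.0508% of probes were called (9 in all, of either direction). The adjusted p of the 12 probes ran from 0.138 for Tnrc6a to 0.983 for Ago1. With unadjusted p, 5 of the 12 were under 0.05, all of them higher in the mutant hearts, where 6.75% of all probes were under it and higher and 3.26% were under it and lower. The groups did not overlap for 6 of the 12, again all higher in the mutant, against 9.87% of all probes higher and 5.27% lower. Both counts hold 2 probes of Tnrc6b. By the brightest probe of each of the 9 genes, 4 had an unadjusted limma p under 0.05 and were higher, beside 1008 of all 15012 genes. For 5 of the 9 the groups did not overlap with the mutant higher, against 9.71% of all genes. The median log2 difference, mutant minus control, was 0.28 over the brightest probes of the 9 genes and 0.01 over all 15012 genes tested. Without control 3 limma called 2 effectors, Tnrc6a and Ago3, both higher in the mutant, where 0.671% of all probes were called higher. Without mutant 1, mutant 2, mutant 3, control 1 or control 2 it called none of them, and 0, 0, 0.00564, 0 and 0% of all probes. In those 5 fits 5, 4, 5, 6 and 4 of the 12 effector probes had an unadjusted p under 0.05, all higher in the mutant, against 8.00, 6.77, 15.5, 7.42 and 4.75% of all probes in either direction.

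**Figure D1:**
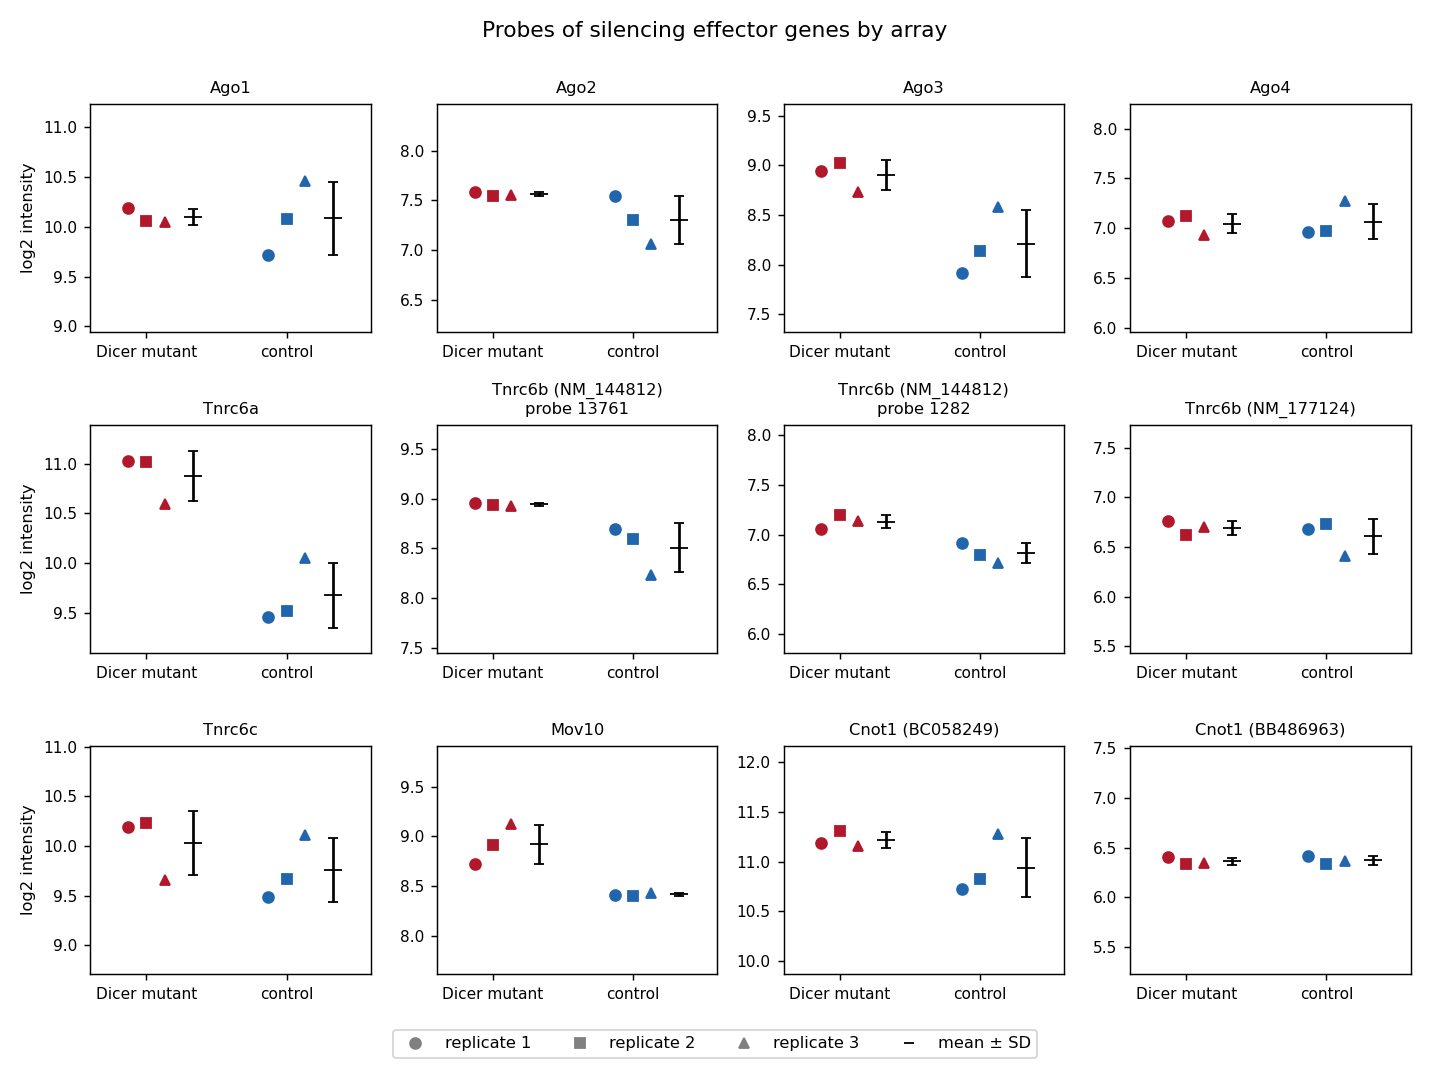
Log2 intensity (vertical axes, normexp-corrected and quantile-normalized) of the 12 tested probes in 3 Dicer mutant and 3 control hearts, with the mean and SD of each group beside the points; every panel spans the same range. Tnrc6a, Ago3, Mov10 and 2 probes of Tnrc6b show mutant points above all control points, as Ago2 does by a narrow margin, whereas Ago1, Ago4, Tnrc6c and Cnot1 overlap.

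Among the Argonautes, Ago3 had the largest difference. Ago3 read 8.94, 9.02 and 8.73 on the log2 scale in mutants 1 to 3, against 7.92, 8.14 and 8.58 in controls 1 to 3. All mutant arrays lay above all control arrays, with control 3 the nearest. In the authors' normalized intensity, a linear scale, these were 5.73, 6.25 and 4.97 in the mutants, against 2.54, 3.09 and 4.33 in the controls. The log2 difference of 0.69 ± 0.18 (SE, 3 arrays per group) corresponds to 1.61-fold (95% interval 1.19 to 2.18), with a limma adjusted p of 0.275. Without control 3 it was 0.87 ± 0.13 and passed (limma adjusted p = 0.0471).

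Ago2, the Argonaute that can itself cut a fully paired target, gave 7.59, 7.54 and 7.56 in the mutants, against 7.54, 7.30 and 7.06 in the controls. The mutant arrays agreed within an SD of 0.02 and the controls spread over an SD of 0.24. The groups did not overlap, but mutant 2 and control 1 both rounded to 7.54. The difference was 0.26 ± 0.13, with a 95% interval of -0.06 to 0.58 (limma adjusted p = 0.565). Without control 3 it was 0.14.

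Neither Ago1 nor Ago4 separated the groups. Ago1 read 10.19, 10.06 and 10.05 in the mutants against 9.72, 10.08 and 10.46 in the controls, whose range enclosed all the mutants. Its difference was 0.01 ± 0.19, with a 95% interval of -0.43 to 0.46 (limma adjusted p = 0.983). Ago4 read 7.08, 7.12 and 6.93 in the mutants against 6.96, 6.97 and 7.27 in the controls, a difference of -0.02 ± 0.12 with a 95% interval of -0.31 to 0.27 (limma adjusted p = 0.964). The intervals of both genes leave room for differences of that size in either direction. Both differences were of the opposite sign in some settings, with Ago1 between -0.17 and 0.40 and Ago4 between -0.07 and 0.14.

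Ago3, Ago1 and Ago4 are consecutive protein-coding genes on one chromosome in RefSeq, with 0 others between them, yet their differences were unequal. The ratio of Ago3 to Ago1 on the same array, which removes whatever moves both alike, was 0.67 higher on the log2 scale in the mutants. Ago3 minus Ago1 was -1.25, -1.04 and -1.32 in mutants 1 to 3, against -1.80, -1.94 and -1.88 in controls 1 to 3. The level of such a ratio carries no meaning, since different probes are not comparable, but its groups did not overlap and control 3 sat between controls 1 and 2. Ago3 minus Ago4 gave 1.87, 1.90 and 1.80 in the mutants against 0.96, 1.17 and 1.31 in the controls, a difference of 0.71. Against Ago2 the groups overlapped and the difference was 0.42, moving to 0.73 without control 3 and 0.16 without control 1. An exact two-sided permutation test over the 20 splits gave p = 0.1 for Ago3 against Ago1 and for Ago3 against Ago4, the smallest this design allows, and p = 0.4 for Ago3 against Ago2. Adjusted over the 8 ratios computed, these exact p-values were 0.2, 0.2 and 0.457. The ratios were chosen after the values of the genes had been seen.

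The promoter windows of the neighbours Ago3 and Ago1, 250 bases before to 50 after the annotated start, are shown because the genes lie side by side and differ in their values. They come from RefSeq on build GRCm38.p6, minus strand, at chr4:126429493-126429792 for Ago3 and chr4:126468582-126468881 for the first of 2 Ago1 windows. Capitals mark the letters CCAAT or GGGCGG on either strand, which do not overlap each other here.
Ago3: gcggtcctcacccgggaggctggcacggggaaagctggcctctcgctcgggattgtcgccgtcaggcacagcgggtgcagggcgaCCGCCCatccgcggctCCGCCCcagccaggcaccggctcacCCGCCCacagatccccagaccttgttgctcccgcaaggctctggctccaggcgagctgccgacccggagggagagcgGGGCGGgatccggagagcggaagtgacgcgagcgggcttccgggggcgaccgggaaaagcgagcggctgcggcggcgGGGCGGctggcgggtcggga
Ago1: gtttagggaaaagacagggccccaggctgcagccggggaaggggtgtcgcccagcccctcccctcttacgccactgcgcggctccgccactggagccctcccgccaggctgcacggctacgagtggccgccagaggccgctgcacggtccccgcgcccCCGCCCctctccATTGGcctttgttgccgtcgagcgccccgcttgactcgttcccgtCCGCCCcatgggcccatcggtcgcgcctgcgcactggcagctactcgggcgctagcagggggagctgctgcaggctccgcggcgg
The Ago3 window holds GGGCGG 5 times and CCAAT 0 times, and the Ago1 window holds GGGCGG 2 times and CCAAT 1 time. The window of Ago4, the other neighbour, is not shown. It holds the same counts as that of Ago3, GGGCGG 5 times (overlaps counted) and CCAAT 0 times, while Ago4 differed by -0.02. Whether these letters bear on the values was not tested. Over all 32851 windows of the table, 35.7% hold GGGCGG and 37.4% hold CCAAT. Both windows shown are rich in G and C, at 74.7% for Ago3 and 73.0% for Ago1, against a median of 52.7% over all windows. That of Ago4 is at 83.3%.

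The GW182 gene Tnrc6a had the largest difference of the 9 measured genes. Tnrc6a read 11.02, 11.02 and 10.59 in mutants 1 to 3, against 9.46, 9.52 and 10.06 in controls 1 to 3. The authors' normalized intensities were 26.1, 27.6 and 20.1 in the mutants, against 8.57, 8.94 and 13.2 in the controls. The lowest mutant array, mutant 3, was still above the highest control array, control 3, and these 2 were the closest pair. The difference was 1.20 ± 0.20 (log2, SE, 3 arrays per group), or 2.30-fold with a 95% interval of 1.65 to 3.21. The unadjusted p was 0.000685 in limma and the adjusted p 0.138, so it did not pass. Without control 3 the difference was 1.39 ± 0.16 and passed (limma adjusted p = 0.0428). It lay between 1.09 and 1.56 in all 18 alternatives computed for it.

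Tnrc6b was represented by 3 tested probes, which did not all behave alike. The brightest, number 13761, read 8.96, 8.94 and 8.93 in the mutants against 8.70, 8.60 and 8.23 in the controls, a difference of 0.44 ± 0.14 or 1.35-fold (95% interval 1.08 to 1.70, limma adjusted p = 0.352). Probe 1282, designed from the same transcript record, NM_144812, read 7.06, 7.19 and 7.13 in the mutants against 6.92, 6.80 and 6.72 in the controls, a difference of 0.32 ± 0.10 (limma adjusted p = 0.335). The groups did not overlap on either probe. The third, number 7112, comes from another transcript record of the gene, NM_177124, and read 6.76, 6.62 and 6.70 in the mutants against 6.69, 6.73 and 6.40 in the controls. Its difference was 0.09 ± 0.12 (limma adjusted p = 0.826), and the groups overlapped. This probe was also the dimmest of the 3. With the background-subtracted intensity its difference was 0.20, beside 0.55 for probe 1282 and 0.50 for probe 13761. Whether signal level or transcript record accounts for the unlike behaviour was not tested. The ratio of probe 13761 to probe 7112 on the same array was 2.20, 2.32 and 2.23 in the mutants, against 2.01, 1.86 and 1.82 in the controls, a difference of 0.35 (exact permutation p = 0.1, two-sided, 0.2 over the 8 ratios).

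Tnrc6c did not differ beyond its spread. It read 10.19, 10.23 and 9.66 in the mutants against 9.48, 9.67 and 10.11 in the controls, so mutant 3 fell within the controls and control 3 within the mutants. The difference was 0.27 ± 0.22, or 1.21-fold with a 95% interval of 0.842 to 1.74 (limma adjusted p = 0.684). It depended on single arrays, at 0.45 without control 3, 0.46 without mutant 3, 0.23 without control 2, 0.19 without mutant 1, 0.17 without mutant 2 and 0.14 without control 1, and passed in none of these fits. Mutant 3 was the lowest mutant and control 3 the highest control for Tnrc6c and for Tnrc6a, as also for Ago1, Ago3, Ago4 and the brighter Cnot1 probe. The ratio of Tnrc6a to Tnrc6c on the same array was tight within groups, at 0.83, 0.79 and 0.93 in the mutants, against -0.02, -0.15 and -0.05 in the controls. Tnrc6a was thus 0.93 higher (log2) relative to Tnrc6c in the mutants, with every mutant array above every control array (exact permutation p = 0.1, two-sided, the smallest possible, and 0.2 over the 8 ratios). This value lay between 0.88 and 0.97 over the 10 alternatives run on it, which were chosen after seeing the data. Against Tnrc6b the difference of Tnrc6a was 0.76, and control 3 at 1.83 overlapped the mutants at 1.66 to 2.08 (exact permutation p = 0.2). Tnrc6b against Tnrc6c gave 0.16 (exact permutation p = 0.8), with the sign turned without control 3 (-0.16) or mutant 3 (-0.02) and 0.39 without control 1.

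**Figure D2:**
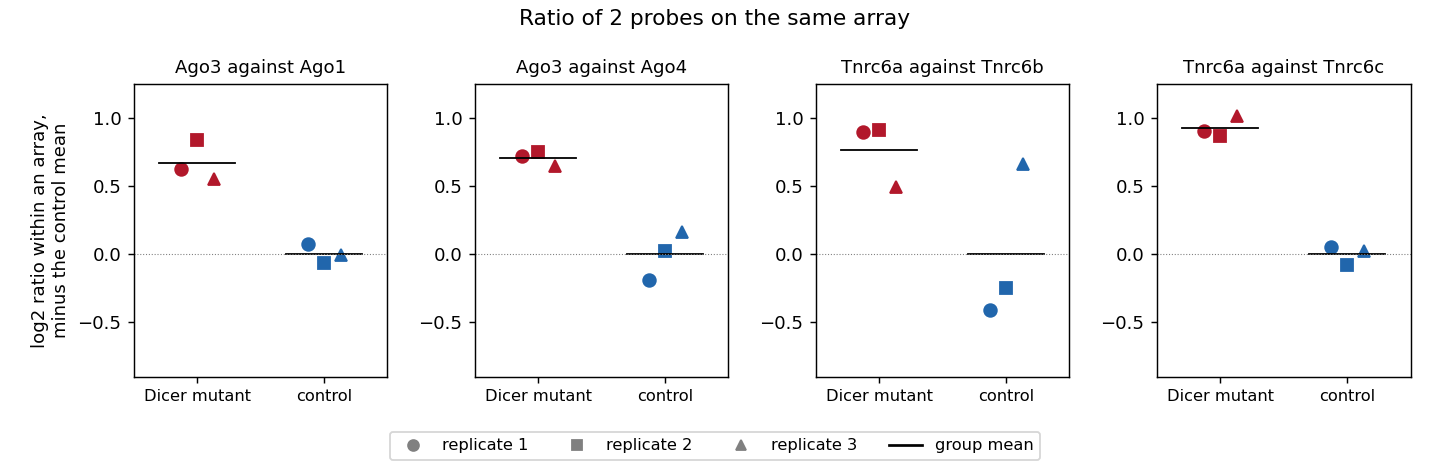
Log2 ratio of 2 probes on the same array (vertical axis, shifted so that the control mean is 0) for 2 Argonaute and 2 GW182 pairs, with 3 mutant and 3 control points and the group means as lines. Tnrc6a against Tnrc6c and Ago3 against Ago1 separate by 0.93 and 0.67 with little spread within groups, whereas control 3 overlaps the mutants in Tnrc6a against Tnrc6b.

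The start windows of the 3 GW182 genes are shown for the unequal behaviour of Tnrc6a and Tnrc6c and of the Tnrc6b probes. They are RefSeq sequence of build GRCm38.p6, plus strand, at chr7:123123635-123123934 for Tnrc6a and chr11:117654039-117654338 for Tnrc6c. Tnrc6b has 2 windows, chr15:80711063-80711362 and chr15:80798360-80798659, which start 87297 bases apart. Which window belongs to which transcript record is not given in the table. Capitals are as above.
Tnrc6a: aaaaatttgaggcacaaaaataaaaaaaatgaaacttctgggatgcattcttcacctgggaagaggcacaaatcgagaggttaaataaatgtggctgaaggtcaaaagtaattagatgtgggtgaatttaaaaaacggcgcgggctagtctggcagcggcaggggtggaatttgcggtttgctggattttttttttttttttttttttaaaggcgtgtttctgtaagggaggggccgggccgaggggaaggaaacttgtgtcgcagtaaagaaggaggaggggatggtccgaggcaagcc
Tnrc6b first window: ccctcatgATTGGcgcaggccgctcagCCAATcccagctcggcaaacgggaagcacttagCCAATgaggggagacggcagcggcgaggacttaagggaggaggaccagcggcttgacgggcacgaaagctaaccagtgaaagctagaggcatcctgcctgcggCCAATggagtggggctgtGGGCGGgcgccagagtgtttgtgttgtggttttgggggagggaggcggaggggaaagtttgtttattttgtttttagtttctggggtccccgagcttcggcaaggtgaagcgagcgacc
Tnrc6b second window: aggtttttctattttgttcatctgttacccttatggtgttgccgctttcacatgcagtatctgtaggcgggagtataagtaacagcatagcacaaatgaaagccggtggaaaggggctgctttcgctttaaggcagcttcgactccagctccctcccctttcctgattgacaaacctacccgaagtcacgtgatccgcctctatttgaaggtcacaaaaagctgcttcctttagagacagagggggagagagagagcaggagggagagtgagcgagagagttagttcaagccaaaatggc
Tnrc6c: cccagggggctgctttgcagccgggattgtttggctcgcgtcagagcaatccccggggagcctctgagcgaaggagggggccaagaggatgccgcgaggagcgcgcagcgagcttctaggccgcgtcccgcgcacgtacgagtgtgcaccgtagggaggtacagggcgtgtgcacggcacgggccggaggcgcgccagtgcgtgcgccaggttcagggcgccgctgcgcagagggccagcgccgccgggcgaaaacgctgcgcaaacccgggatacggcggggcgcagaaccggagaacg
The first Tnrc6b window holds CCAAT 4 times and GGGCGG 1 time, and the second holds neither, nor do those of Tnrc6a and Tnrc6c. The letters CACGTG, found in 7.2% of all windows, occur 1 time in the second Tnrc6b window and in no other of the 10 windows of the 7 genes matched. TATAAA, in 13.6% of all windows, is in none of the 10. The Tnrc6a window is 44.7% G and C, and that of Tnrc6c 71.3%. Ago2, Ddx6 and Cnot1 were not matched.

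Mov10, a helicase that associates with Argonaute and the decay machinery, had the smallest spread among controls of the 12 probes (SD 0.0153). It read 8.72, 8.92 and 9.12 in the mutants against 8.41, 8.41 and 8.44 in the controls. All mutant arrays were above all control arrays, and here mutant 3 was the highest of the mutants, unlike in Tnrc6a and Ago3. The difference was 0.50 ± 0.12, or 1.42-fold with a 95% interval of 1.16 to 1.72 (limma adjusted p = 0.235). Leaving out control 3 left it at 0.51, and over 18 alternatives it ran from 0.40 to 0.61.

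Cnot1 gave 2 unlike readings. The probe from BC058249 read 11.19, 11.31 and 11.15 in the mutants against 10.72, 10.82 and 11.27 in the controls, where control 3 alone reached the mutants. Its difference was 0.28 ± 0.16, or 1.21-fold with a 95% interval of 0.932 to 1.57 (limma adjusted p = 0.586), with 0.44 without control 3 (limma adjusted p = 0.0901) and 0.17 without control 1. The dim probe from BB486963 read 6.40, 6.33 and 6.35 in the mutants, against 6.42, 6.34 and 6.36 in the controls, a difference of -0.01 ± 0.08 (limma adjusted p = 0.969). The ratio of the 2 Cnot1 probes differed by 0.29 with overlapping groups (exact permutation p = 0.3), and by 0.46 without control 3 and 0.16 without control 1.

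**Figure D3:**
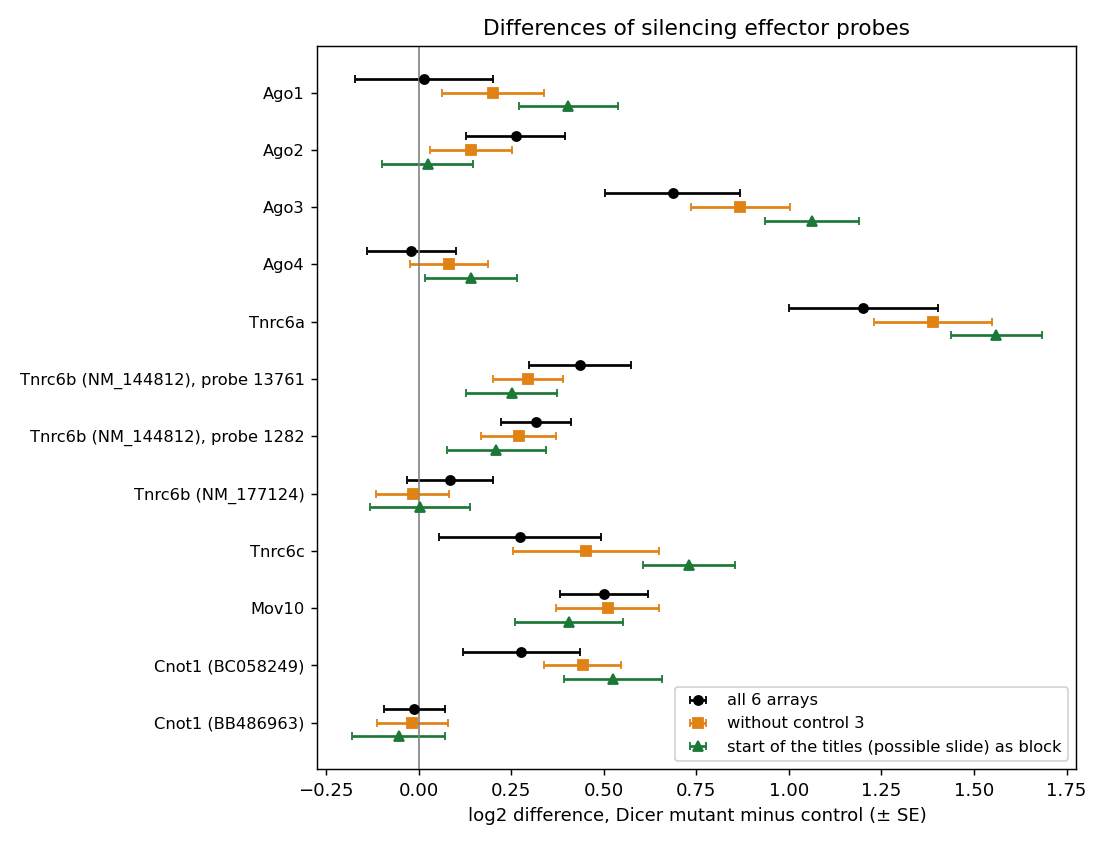
Log2 difference, mutant minus control, with its SE (horizontal axis) for the 12 tested probes: with all 6 arrays, without control 3, and with the start of the array titles, a possible slide, as a block. The block fit rests on mutants 1 and 2 against control 1 alone. Tnrc6a and Ago3 lie to the right of 0 in all 3 fits, at 1.20 and 0.69 with all arrays, and the Ago2 and Tnrc6b differences move towards 0 when control 3 is left out.

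Mutants 1 and 2 and control 1 share the start of their array titles, and every other array has a start of its own. The labels do not say what this code stands for, and it was read as a possible slide only to try it as a block. With that block, mutant 3, control 2 and control 3 each stand alone and add nothing to the difference. The fit thus sets mutants 1 and 2 against control 1 alone and takes that control to vary like the mutants. In it 3 effectors passed limma's test, all higher in the mutant, where 3.02% of all probes were called higher. They were Tnrc6a at 1.56 ± 0.12 (limma adjusted p = 0.0173), Ago3 at 1.06 ± 0.13 (adjusted p = 0.0239) and Tnrc6c at 0.73 ± 0.12 (adjusted p = 0.0418). Ago2 gave 0.02 there and Ago1 0.40, neither passing.

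Markers of cell types also varied across the arrays. In bulk hearts fewer cells of a type and less RNA per cell cannot be told apart. The cardiomyocyte markers, as the median deviation of each array from the mean of all 6, stood at 0.11, 0.11 and -0.06 in mutants 1 to 3, against -0.26, -0.16 and 0.25 in controls 1 to 3. Control 3 was thus the highest control and mutant 3 the lowest mutant, as in Ago1, Ago3, Ago4, Tnrc6a, Tnrc6c and the brighter Cnot1 probe. The summed normalized intensity of the cardiomyocyte markers ran from 151086 to 168482 in the mutants and from 129424 to 178827 in the controls. Erythroid markers, 9 of 10 tested, stood at 0.03, -0.20 and -0.09 in the mutants, against 0.47, 0.24 and -0.17 in the controls, and their sum ran from 103999 to 110445 in the mutants and from 107264 to 117966 in the controls. Endothelial markers, 7 of 8 tested, stood at -0.14, -0.06 and -0.04 in the mutants, against 0.05, 0.09 and 0.08 in the controls. They summed to between 6704 and 7145 in the mutants and between 7763 and 8009 in the controls. Every mutant array was lower than every control array in both measures, and Cdh5 was under the filter. The 6 cushion mesenchyme markers also had mutant 3 lowest and control 3 highest, at 0.15, 0.14 and -0.32 in the mutants, against 0.03, 0.15 and 0.36 in the controls, with sums of 7763 to 8774 in the mutants and 6905 to 8260 in the controls. Neural markers, 3 of 4 tested, stood at 0.02, 0.05 and 0.09 in the mutants, against -0.12, -0.13 and 0.01 in the controls. Their sums were 332 to 344 in the mutants and 291 to 326 in the controls. Every mutant array was higher, but only narrowly between mutant 1 and control 3, and these sums were the smallest of the 7 lists. The 5 epicardial markers stood at -0.01, -0.10 and -0.10 in the mutants, against 0.21, 0.18 and -0.14 in the controls, and summed to 4154 to 5829 in the mutants and 4576 to 9987 in the controls. Liver markers, 3 of 4 tested, stood at 0.06, -0.14 and -0.01 in the mutants, against -0.13, -0.03 and -0.15 in the controls, and summed to 1720 to 1884 in the mutants and 1544 to 2662 in the controls, with Alb under the filter. None of the tested markers in the 7 lists passed. The part of cell composition in the effector differences was not tested.

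The rest of the pathway was read from a list of 58 further genes, of which 50 had a tested probe. Of these 0 passed higher and 1 lower in the mutant, the lower one being Dicer1, the inactivated gene. Dicer1 read 6.74, 6.73 and 6.68 in the mutants against 7.82, 7.63 and 7.71 in the controls, all mutant arrays lying below all control arrays (limma adjusted p = 0.036). Across the 50, 37 differences were positive and 13 negative, or 74% positive against 52.4% of all genes tested. The median was 0.09, beside 0.01 over all genes. In 7 of the 50 the groups did not overlap with the mutant higher, and in 2 with the mutant lower, or 14% and 4%, against 9.71% and 5.48% of all genes tested.

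By step, the 6 measured processing and loading genes had a median of 0.16, the 18 deadenylation genes 0.07, the 14 decapping and decay genes 0.16 and the 11 Argonaute partners 0.13. Apart from Dicer1, the genes named for each step were those with the smallest p of their group, and none of them passed. Among the deadenylation genes, Cnot7, a catalytic deadenylase of CCR4-NOT, gave 0.41 ± 0.12 (limma adjusted p = 0.325). Its dimmer probe went the other way, at -0.73 with the smaller limma adjusted p of 0.161, so the direction for Cnot7 is not settled. Pan2, the catalytic subunit of the other cytoplasmic deadenylase, gave 0.30 ± 0.13 (limma adjusted p = 0.517). Of the decay genes, Gigyf1, which works with a cap-binding repressor of translation, gave 0.47 ± 0.15, and Xrn1, the exonuclease that degrades decapped transcripts, gave 0.25 ± 0.13 (limma adjusted p = 0.353 and 0.568).

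Trim71, a ubiquitin ligase repressed by let-7 that associates with Argonaute, had the largest positive difference of the list. It read 9.19, 8.79 and 8.11 in the mutants against 7.70, 7.51 and 7.47 in the controls, a difference of 1.14 ± 0.26 (limma adjusted p = 0.221). The RNA-binding protein gene Fmr1 gave 0.27 ± 0.15 (limma adjusted p = 0.579). Of the Piwi genes, whose proteins form the germline branch of the Argonaute family, Piwil1 was tested and gave 0.02 ± 0.08, while Piwil2 and Piwil4 did not reach the filter.

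**Figure D4:**
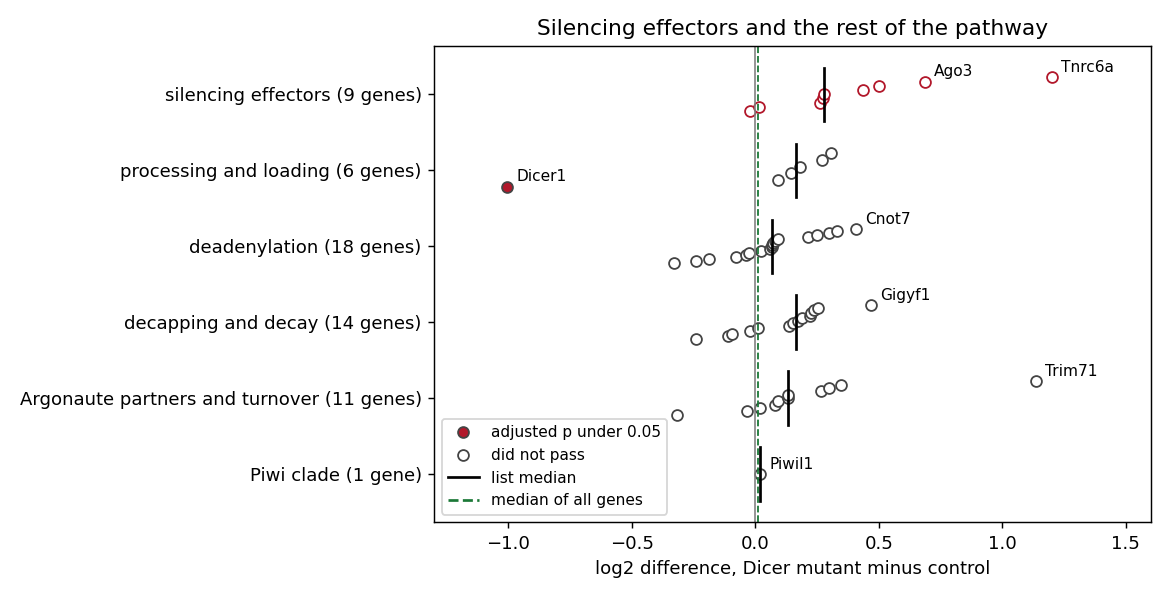
Log2 difference, mutant minus control (horizontal axis), of the brightest tested probe of each gene, grouped by role, with the median of each group as a black line and the median of all genes as a dashed line. Dicer1, lower in the mutant, is the only filled point, and the effectors have a median of 0.28.

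Over the 6 arrays, the 3 genes whose pattern was most like that of Tnrc6a were Cldn7 (Pearson r = 0.999), Rasd1 (r = 0.998) and the clone-named D130040H23Rik (r = 0.995). Rasd1 differed by 1.76 ± 0.30 and Cldn7 by 0.36 ± 0.09, neither passing. For Ago2 they were 4930592I03Rik (r = 0.997), Pla2g2f (r = 0.991) and Kri1 (r = 0.990), with differences of 0.09, 0.21 and 0.09. By rank the likeness to Ago2 was weaker, with Spearman rho of 0.771, 0.829 and 0.714, against 0.943, 1 and 0.943 for the genes like Tnrc6a. All these genes were picked for the highest Pearson r among the tested probes, over only 6 arrays that share the 2 groups. They serve as a description.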

How the data were processed

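Each array's file, as deposited by the authors, holds linear intensities: the spot mean, the median of the local background, their difference and a normalized intensity, with a quality flag per spot. From the values, the authors' normalized intensity is the subtracted intensity divided by 1 value per array (66.1 to 82.8). Neither labels nor headers name the scanner or its software. Spots flagged as masked were treated as missing. Here R 4.3.3 with limma 3.58.1 applied normexp (offset 50) to the spot means of all spots, then log2, then quantile normalization over the 21880 listed probes. A probe needed 3 or more arrays above background and was tested with lmFit and eBayes (two-sided, no block, Benjamini-Hochberg over 17727 probes, threshold 0.05). The fit was also run on simulated data, drawn independently for each probe and array. That run lacks the pattern the real arrays share, so it cannot say how the fit behaves under it. The brightest tested probe leads for a gene. Symbols came from the platform annotation through RefSeq gene numbers (GRCm38.p6), which matched 21541 probes and changed 0 symbols. Intervals are 95%. Arrays were grouped by their labels. Members and lists were chosen with earlier results of these data known. All 10 members were named whatever their values; of the pathway list, Dicer1 and up to 2 genes per step past the threshold, or otherwise the 2 with the smallest p; and the 3 genes most like Ago2 and Tnrc6a by Pearson correlation. Alternatives covered background correction, normalization, filters, blocks, weights and each array left out. The number of arrays limits the precision.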

Additional observations from a re-analysis of the deposited data

How the results depend on the processing

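The count of effector probes passing, 0, was the same in 15 of 18 alternatives. It was 3 with the start of the titles, a possible slide, as a block and 7 with limma's array weights, and between 0 and 2 with 1 array left out, the 2 being Tnrc6a and Ago3 without control 3. Array weights set mutant 3 at 0.29, control 3 at 0.324 and control 2 at 5.85, and called 12.9% of all probes higher. The count of all probes passing was 9; it was 5 with the subtracted intensity, 0 with the title number as a replicate block, 1339 with the title-start block, 4230 with array weights, and 5 genes with the mean of a gene's probes. Leaving out 1 array gave 0 to 320 (0 without mutant 1, mutant 2, control 1 or control 2, 1 without mutant 3 and 320 without control 3). The count for the pathway list, of 50 tested genes and more probes, was 1. It was 0 with the replicate block and 0 to 1 with 1 array left out. With array weights it was 18, of which 15 were higher and 3 lower in the mutant. That fit called 4230 of all 17727 probes in either direction, so many calls are found outside the list too. The title-start block, with control 1 alone on the control side, is not counted here. The replicate block called 0 effectors. Deviations of same-numbered arrays from their group means had correlations of 0.01, -0.48 and -0.38. With 3 arrays per group these deviations are tied to each other, so the check cannot say what the number stands for. Of 213 recomputed differences of effector probes, 189 kept sign and call, 12 gained a call and 12 changed sign without one, in Ago1, Ago4, Tnrc6b probe 7112 and Cnot1 probe 25116. The cause of these changes was not tested.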
